A study of Mus musculus with 13 samples.

Results

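The genes analysed here encode the subunits of Polycomb repressive complex 2 (PRC2): Ezh1, Ezh2, Eed, Suz12, Jarid2, Aebp2, Mtf2, Phf1 and Phf19. They were taken by gene symbol, as 9 of the 22517 genes that carried at least 1 peak in the series, and they held 416 of its 533196 peaks. Each peak was assigned by the authors to 1 gene. A peak was counted as a promoter peak when the distance to the start site named in the authors' annotation was at most 2000 bp, and as distal otherwise.

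The peaks come from chromatin immunoprecipitation with sequencing (ChIP-seq) of mouse olfactory basal cells, the stem and progenitor cells at the base of the smell epithelium. The cells were wild type, of strain C57BL6, isolated from adult olfactory epithelium by the surface receptor c-KIT and kept as adherent lines in a proliferation medium with EGF, FGF2, heparin, antibiotics, BMP4 and the TGF-beta receptor inhibitor SB431542. All libraries share this genotype and culture, so there is no treated or mutant group, and the design compares 4 antibodies with 2 libraries each. The 5 input libraries have no peak list and were not analysed here.

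The libraries of 1 antibody came from different lines. H3K27me3 was profiled in line 1 at passage 12 (replicate 1, 68898 peaks) and in line 2 at passage 11 (replicate 2, 101129 peaks). RING1B was profiled in line 1 at passage 12 (7578 peaks) and in line 2 at passage 19 (32918 peaks). CBX8 was profiled in line 2 at passage 19 (9926 peaks) and in line 3 at passage 14 (77417 peaks). H3K27ac was profiled in line 2 at passage 13 (123155 peaks) and in line 3 at passage 14 (112175 peaks). Only some libraries of different antibodies share a line and passage: replicate 1 of H3K27me3 and of RING1B, RING1B replicate 2 with CBX8 replicate 1, and replicate 2 of CBX8 and of H3K27ac. Within an antibody, line, passage and replicate cannot be told apart. With 2 libraries per antibody no test was made, and every error below is the spread between those libraries. Read depth per library is unknown from the peak lists.

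PRC2 places methyl groups on lysine 27 of histone H3, and the trimethylated form, H3K27me3, marks repressed genes. EZH1 or EZH2 is the methyltransferase, EED binds the mark and SUZ12 holds the complex together. JARID2 and AEBP2 form one variant of the complex, and the Polycomb-like proteins PHF1, MTF2 and PHF19 form another. RING1B is the ubiquitin ligase of PRC1, CBX8 is a PRC1 subunit whose chromodomain can bind H3K27me3, and acetylation of the same lysine, H3K27ac, marks active promoters and enhancers and excludes methylation of that residue.

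Promoter sequence is shown first for 4 genes that cover the range of the results: Phf19 (RING1B, H3K27me3 and H3K27ac), Ezh2 and Mtf2 (RING1B and H3K27ac) and Eed (H3K27ac alone, at the highest fold). Each window is 300 bases long, with 250 bases before and 50 after a transcript start in RefSeq (GRCm38.p6, the assembly of mm10), 5′ to 3′ along the gene, and capitals mark CpG dinucleotides. The Phf19 window is chr2:34913927-34914226 (minus strand), that of Ezh2 is chr6:47594981-47595280 (minus), that of Mtf2 is chr5:108065424-108065723 (plus) and that of Eed is chr7:89980927-89981226 (minus).
Phf19: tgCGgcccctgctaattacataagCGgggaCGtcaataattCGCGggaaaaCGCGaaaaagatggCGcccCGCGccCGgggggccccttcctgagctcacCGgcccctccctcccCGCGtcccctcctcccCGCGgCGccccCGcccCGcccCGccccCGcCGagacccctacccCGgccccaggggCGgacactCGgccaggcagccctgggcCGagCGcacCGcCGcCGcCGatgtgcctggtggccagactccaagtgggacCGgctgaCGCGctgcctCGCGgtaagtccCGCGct
Ezh2: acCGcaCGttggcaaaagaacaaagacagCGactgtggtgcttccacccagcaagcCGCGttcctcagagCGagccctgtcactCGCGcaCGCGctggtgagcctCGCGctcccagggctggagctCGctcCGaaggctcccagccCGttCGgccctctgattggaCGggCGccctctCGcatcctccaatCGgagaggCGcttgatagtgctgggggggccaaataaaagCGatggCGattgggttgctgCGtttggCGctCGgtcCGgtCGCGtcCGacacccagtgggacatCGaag
Mtf2: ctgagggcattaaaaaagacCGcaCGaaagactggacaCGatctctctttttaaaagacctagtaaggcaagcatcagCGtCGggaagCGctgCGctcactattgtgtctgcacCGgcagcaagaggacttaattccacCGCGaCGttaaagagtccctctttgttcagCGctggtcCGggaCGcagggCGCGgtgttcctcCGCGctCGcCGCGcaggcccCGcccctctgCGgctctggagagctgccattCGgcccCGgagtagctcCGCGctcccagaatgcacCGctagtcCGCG
Eed: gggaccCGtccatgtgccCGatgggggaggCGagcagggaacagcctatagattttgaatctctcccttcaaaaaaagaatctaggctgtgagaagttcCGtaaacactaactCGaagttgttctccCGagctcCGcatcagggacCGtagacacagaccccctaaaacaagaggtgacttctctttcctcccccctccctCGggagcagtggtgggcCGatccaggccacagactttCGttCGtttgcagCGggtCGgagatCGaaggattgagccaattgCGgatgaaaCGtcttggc
The Phf19 window held 38 CpG, and the Ezh2 window held 31, more than 89.4% of the 32851 mouse windows in the RefSeq table. The Mtf2 window held 30 CpG and the Eed window 17, which is still more than 68.6% of all windows. CpG dinucleotides were thus dense in all of these, and the window of Eed was the sparsest of the 4.

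RefSeq gave 13 windows for the 9 genes. Their CpG number ran from 2 to 41 with a median of 23, against a median of 7 over all windows, and their median GC content was 62.7% against 52.7%. The sparse ones were an internal start of Mtf2 with 2 CpG, and 2 of the 3 Aebp2 windows with 4 each, including the most upstream of the 3. The Aebp2 window between them held 21. Suz12 had the densest window, with 41 CpG. Both strands were searched for 7 short motifs. The E2F-type letters TTTCGCGC, TTTGGCGC, TTTCCCGC or TTTGCCGC were in the windows of Ezh2, Suz12 and Phf19, and in 2.26% of all windows. In Ezh2 the match was TTTGGCGC, from 3 to 10 bases after the start (counted as 0), and in Phf19 it was TTTCCCGC on the opposite strand, from position -208 to -201. The GC box GGGCGG was in 8 of the 13 windows (35.7% of all), CCAAT in 7 (37.4%) and the YY1 letters AAGATGGC in that of Phf19 alone (2.75%). CACGTG (7.15% of all windows), CCGGAAG (8.86%) and TGACGTCA (1.79%) were in none of the 13. None of the matches in these windows overlapped a match to another motif. Such matches describe the letters and do not show binding.

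At the promoters, all 9 genes carried H3K27ac in both replicates, 4 carried RING1B in both, 1 carried H3K27me3 in both and none carried CBX8 in both. Among all 22517 genes, H3K27ac was called in both replicates at 55.6%, RING1B at 12.8%, H3K27me3 at 20.7% and CBX8 at 6.28%. Against those shares, 0 of 9 for CBX8 and 1 of 9 for H3K27me3 are near the background, while 9 of 9 for H3K27ac and 4 of 9 for RING1B lie above it. The 9 genes are too few for anything particular to be read from these counts. Among protein-coding genes only, the shares were 59.6% for H3K27ac, 14.1% for RING1B, 21.8% for H3K27me3 and 6.72% for CBX8.

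**Figure D1:**
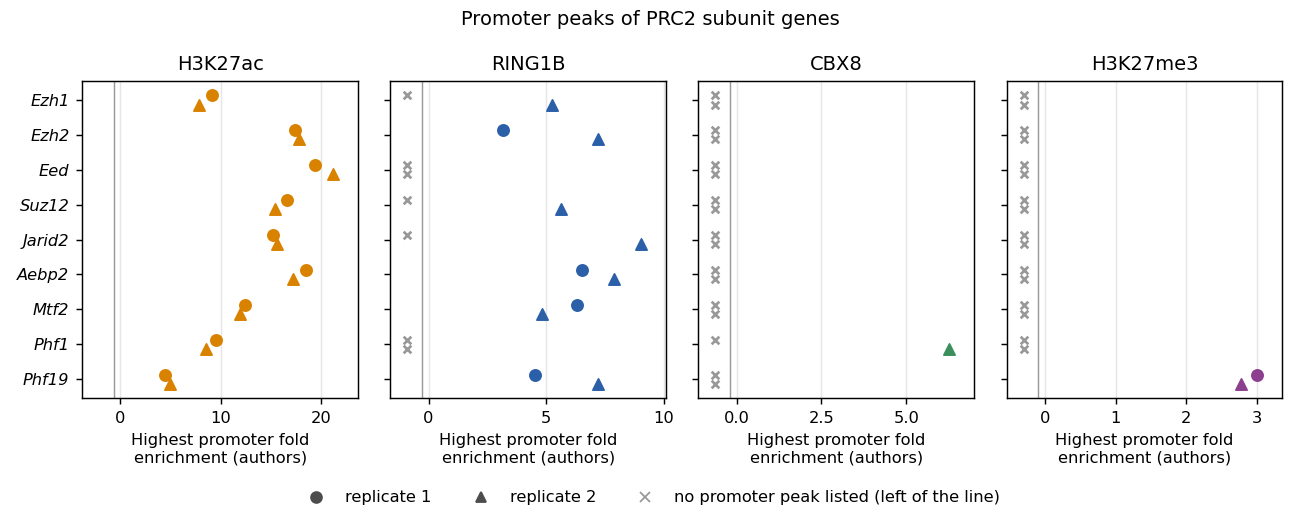
Highest promoter fold enrichment of each gene (x axis, the authors' values, 1 panel per antibody with its own scale) in replicate 1 (circles) and replicate 2 (triangles). Crosses left of the grey line stand for no listed promoter peak, which is not a fold of 0. The H3K27ac values run from 4.44 at Phf19 to 21.1 at Eed.

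The fold of a promoter is given as the highest fold enrichment that the authors' peak caller listed for the gene within the window. RING1B and CBX8 were called as narrow peaks and the histone marks as broad peaks, so folds are compared within an antibody only. Each fold is also placed by its percentile among the genes with a promoter peak in the same library. The percentile is free of the overall scale of a library, but not of how many peaks it lists.

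The catalytic genes differed in acetylation. Ezh2, which encodes the more active methyltransferase of dividing cells, had an H3K27ac fold of 17.4 in replicate 1 and 17.8 in replicate 2 (17.6 ± 0.257, SD, n = 2). Ezh1, whose product is the paralogue found widely in resting cells, had 9.09 and 7.81 (8.45 ± 0.90, SD, n = 2). Both Ezh2 values were above both Ezh1 values. Ezh2 ranked at the 94.4th and 94.5th percentile of acetylated promoters and Ezh1 at the 52.2nd and 42.8th, close to the middle of the list. The acetylated peak of Ezh2 (1.81 and 1.77 kb wide) also covered the start of a neighbouring transcript, F830010H11Rik, so that its signal cannot be assigned to Ezh2 alone.

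RING1B was listed at the Ezh2 promoter in both lines, but at very different rank. The fold was 3.15 in replicate 1, at percentile 0.713, so among the weakest promoter peaks of that list, and 7.23 in replicate 2, at percentile 79.4 (5.19 ± 2.88, SD, n = 2). At a q-value limit of 1e-05 Ezh2 no longer had RING1B in both replicates, which left 3 members. In replicate 2 there were 3 RING1B peaks within the acetylated region. Ezh1 had a RING1B peak in replicate 2 only, with a fold of 5.26. Neither gene had a promoter peak of CBX8 or H3K27me3.

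The core subunit genes Eed and Suz12 were strongly acetylated. Eed had the highest H3K27ac fold of the 9, at 19.4 and 21.1 (20.3 ± 1.24, SD, n = 2), which was percentile 97.2 and 98.2. Suz12 had 16.6 and 15.4 (16.0 ± 0.854, SD, n = 2). Eed was also the only member with no RING1B, CBX8 or H3K27me3 promoter peak in any library. Suz12 had 2 RING1B peaks in replicate 2, the higher at 5.64, and none in replicate 1.

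Jarid2 and Aebp2, the accessory genes of the variant without Polycomb-like proteins, were both high in H3K27ac. JARID2 helps to bring PRC2 to chromatin and AEBP2 stimulates it. Jarid2 had 15.3 and 15.6 (15.4 ± 0.222, SD, n = 2). Aebp2 had 18.5 and 17.2 (17.8 ± 0.880, SD, n = 2). The acetylated promoter peak of Aebp2 was wide as well, at 8.11 and 11.84 kb, which put it at percentile 93.1 and 97.0 of width. That of Jarid2 was 1.96 and 2.13 kb wide, and a further acetylated peak, centred at 2.9 kb, lay close behind it in each replicate.

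Among the 4 genes with RING1B in both replicates, Aebp2 had the folds that lay closest together. The fold was 6.54 in replicate 1 and 7.89 in replicate 2 (7.22 ± 0.956, SD, n = 2), at percentile 65.4 and 83.7. There were 2 RING1B peaks in replicate 1 and 4 in replicate 2, all downstream of the outermost start and within the acetylated region. Jarid2 had the highest RING1B fold of the 9 genes in replicate 2, at 9.03 (percentile 88.3), and no RING1B peak at all in replicate 1. The highest promoter folds of any gene were 69.7 in replicate 1 and 85.2 in replicate 2, so every value here was far below the strongest RING1B promoters.

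The Polycomb-like genes had the lowest acetylation of the accessory genes. Their products bind unmethylated CpG DNA and methylated histone H3. Mtf2 had an H3K27ac fold of 12.4 and 11.9 (12.2 ± 0.374, SD, n = 2). Phf1 had 9.48 and 8.50 (8.99 ± 0.690, SD, n = 2). Phf19 had 4.44 and 4.99 (4.71 ± 0.390, SD, n = 2), the lowest of the 9, at percentile 22.8 and 25. Both values of each of these genes were below both values of Jarid2 and of Aebp2.

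Phf19 was the 1 gene of the 9 with H3K27me3 at the promoter, alongside RING1B and H3K27ac. The H3K27me3 fold was 3.00 in replicate 1 and 2.78 in replicate 2 (2.89 ± 0.156, SD, n = 2), at percentile 31.3 and 30.1, below the median promoter of each list (3.24 and 3.04). These were weak calls: the -log10 q-value was 1.75 and 1.99. The peaks were 1.82 and 2.53 kb wide. RING1B had a fold of 4.51 and 7.20 (5.85 ± 1.90, SD, n = 2) at the same place. In replicate 2 the RING1B peak and in both replicates the H3K27me3 peak covered the whole Phf19 window printed above. All of RING1B, H3K27me3 and H3K27ac in both replicates were found at 2.6% of all genes, so 1 of 9 is no result about these genes.

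Mtf2 carried RING1B in both replicates, at 6.31 and 4.83 (5.57 ± 1.05, SD, n = 2), and 176 of the 300 bases of its printed window lay under the RING1B peaks of both. For Ezh2 it was 134 of the 300 bases. Phf1 had no RING1B peak, and was the only member with a CBX8 promoter peak: a 160 bp peak of fold 6.25 in replicate 2, 290 bp from the start, with none in replicate 1. Its acetylated peak was 9.08 kb wide in replicate 1, where it also covered the start of the neighbour Cuta. In replicate 2 it was 5.12 kb and Cuta had an acetylated peak of its own.

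**Figure D2:**
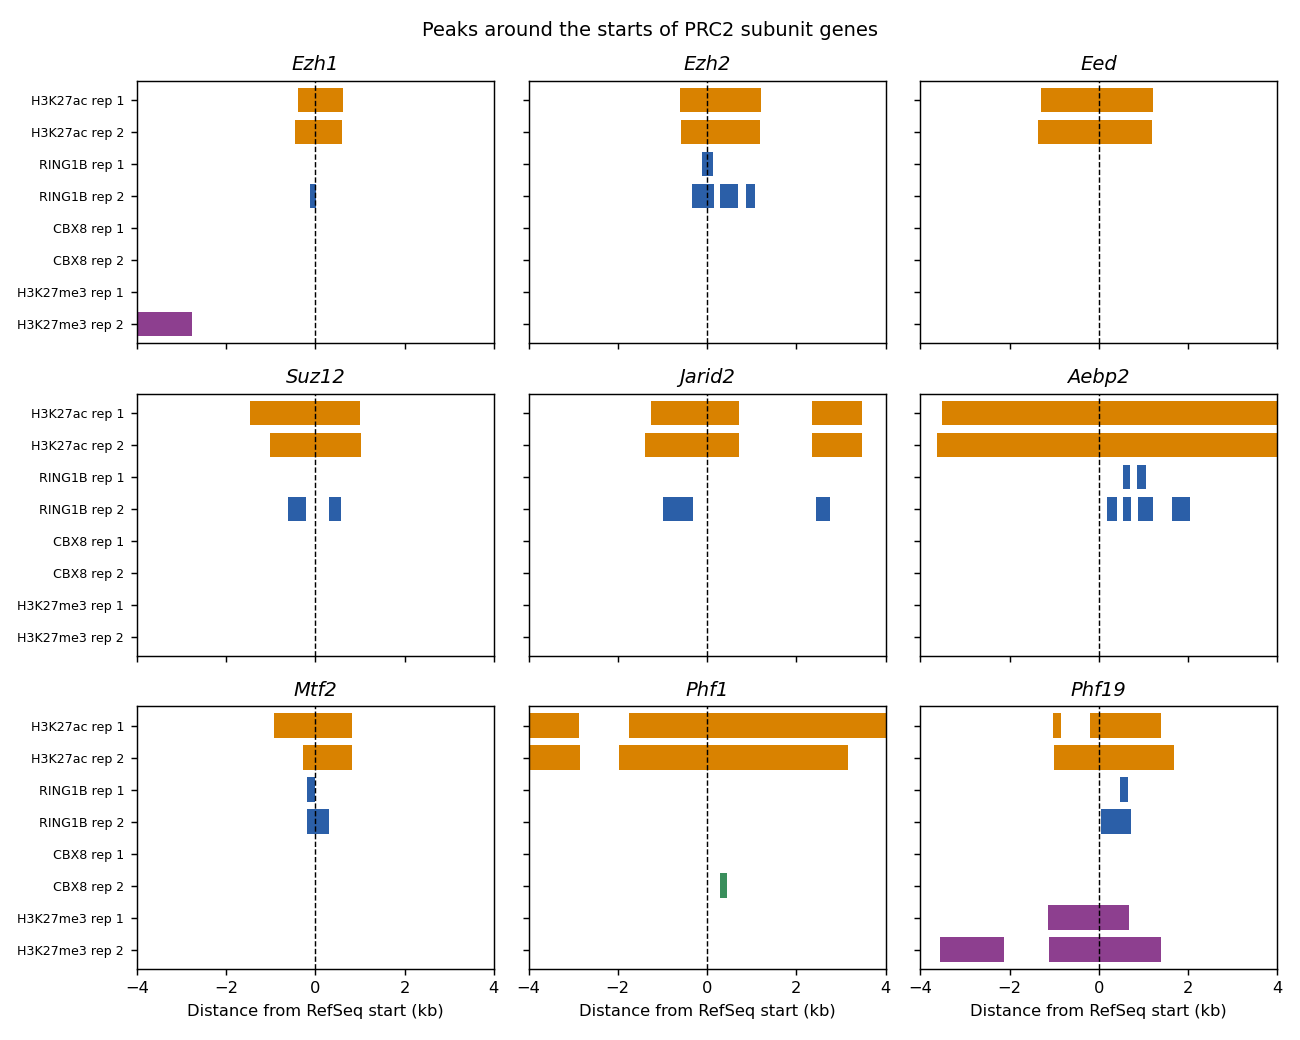
Listed peaks from -4 to 4 kb around the outermost RefSeq start of each gene (x axis, kb, in the direction of transcription; dashed line, start), with 1 row per library and peaks shorter than 0.4% of the axis drawn at that width. Blue RING1B peaks lie inside the orange H3K27ac peaks, and Phf19 alone has H3K27me3 at the start.

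Ordered by mean H3K27ac fold, the genes ran Eed, Aebp2, Ezh2, Suz12, Jarid2, Mtf2, Phf1, Ezh1 and Phf19. Of the 8 neighbouring pairs in this order, 5 had replicate ranges that did not overlap. The exceptions were Aebp2 with Ezh2, Suz12 with Jarid2, and Phf1 with Ezh1, whose order was not resolved by these libraries. The members' median fold was 15.3 in replicate 1 and 15.4 in replicate 2, against 8.81 and 8.80 over the 13454 and 13736 genes with an acetylated promoter. Eed, Aebp2, Ezh2, Suz12, Jarid2 and Mtf2 lay above the all-gene median in both replicates, Phf19 lay below it in both, and Phf1 and Ezh1 lay above it in replicate 1 only.

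**Figure D3:**
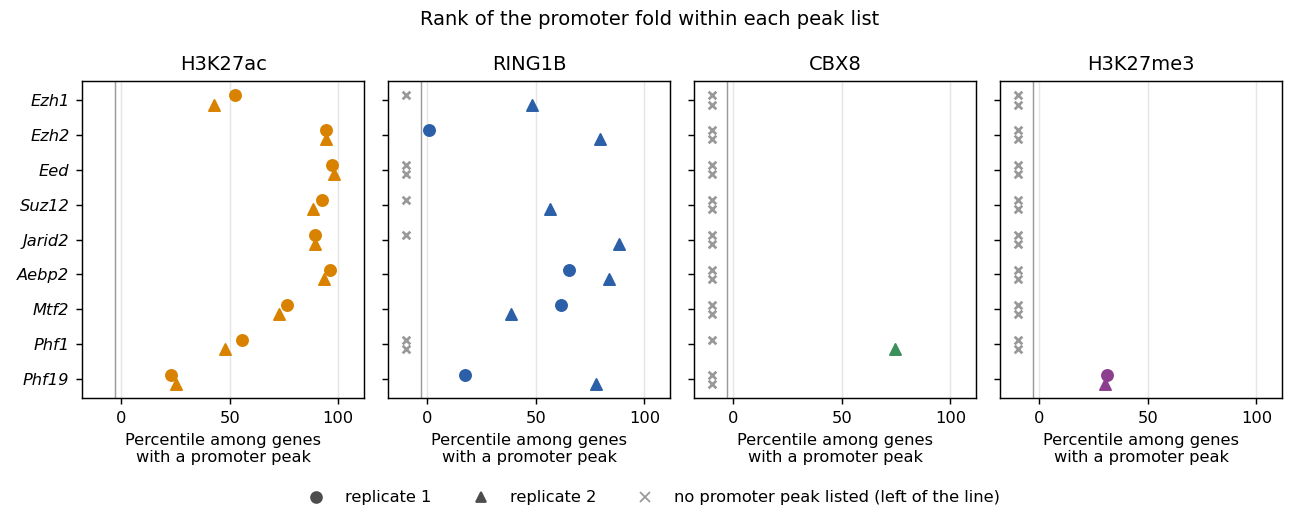
Percentile of each gene's highest promoter fold among all genes with a promoter peak in the same library (x axis, 0 to 100), by antibody; circles are replicate 1, triangles replicate 2, and crosses left of the grey line are genes with no listed promoter peak. H3K27ac percentiles are alike between replicates, while the RING1B percentile of Ezh2 is 0.713 in one and 79.4 in the other.

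The number of members with RING1B moved with the length of the list. In replicate 1 it was 4 of 9, against 13.7% of all genes, and in replicate 2 it was 7 of 9, against 44.5%. Ezh1, Suz12 and Jarid2 were the genes added by replicate 2, which listed 4.34 times as many peaks. For CBX8 it was 0 of 9 in replicate 1 (8.11% of all genes) and 1 of 9 in replicate 2 (27.4%). RING1B replicate 2 and CBX8 replicate 1 came from the same line and passage, and in that pair 7 members had RING1B and none had CBX8. Since line, passage and list length moved together with these counts, their part in the difference was not tested.

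At these promoters RING1B peaks lay within regions listed for H3K27ac. No H3K27ac library of line 1 was analysed here, so for RING1B replicate 1 the overlap is between different lines. All 5 RING1B promoter peaks of replicate 1 and all 14 of replicate 2 overlapped H3K27ac peaks of both replicates. In each replicate 1 of these, that of Phf19, overlapped H3K27me3 in both replicates, and 0 overlapped CBX8. The RING1B peaks were short, from 174 to 246 bp in replicate 1 and from 150 to 685 bp in replicate 2. The H3K27ac peaks over the 9 promoters were 1.01 to 11.84 kb wide, so short peaks near the starts could hardly miss them. Among all genes, 1949 of the 2887 with RING1B in both replicates also had H3K27ac in both. The overlap is therefore no result about these 9 genes in particular. Since all 9 promoters were acetylated, the count of 4 with RING1B in both replicates can also be read against acetylated genes, of which 15.6% had RING1B in both.

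The genes whose promoter percentiles over the 8 libraries were nearest to those of Ezh2 were Hist1h3f and Jun, at a Euclidean distance of 1.14 and 1.24 percentile points. For every gene, a library without a listed promoter peak was entered as percentile 0, although an unlisted peak is not a fold of 0. Neither Hist1h3f nor Jun has a RING1B promoter peak in replicate 1, where the percentile of Ezh2 was itself near 0. Their closeness to Ezh2 in that library therefore comes from this rule. For Ezh1 the nearest were Tmem144 (2.23) and Fam50a (4.22), and for Jarid2 they were Basp1 (2.16) and Nudt19 (3.56). None of these nearest genes, nor Ezh1, Ezh2 or Jarid2, had a CBX8 or H3K27me3 promoter peak, so all stood at percentile 0 there. For Ezh1, Jarid2 and their nearest genes this held in RING1B replicate 1 as well. Beyond the RING1B percentile of Ezh2 in replicate 1, the distances therefore rest on RING1B replicate 2 and on H3K27ac. They describe likeness in these peak lists alone.

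Away from the promoters, most Polycomb peaks of the 9 genes were at 1 place. A stretch of 36.2 kb upstream of Ezh2, chr6:47650888-47687118, held 166 of the 416 peaks. It contained all 20 distal RING1B peaks named for Ezh2 in replicate 1 and all 29 in replicate 2, and all 33 and 46 of the distal CBX8 peaks. H3K27me3 was listed there in 13 and 7 peaks, and H3K27ac in 9 and 9. Few genes had as many distal RING1B peaks as Ezh2: 5 of 22517 in replicate 1 and 13 in replicate 2, Ezh2 included. For CBX8 the numbers were 4 and 26.

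**Figure D4:**
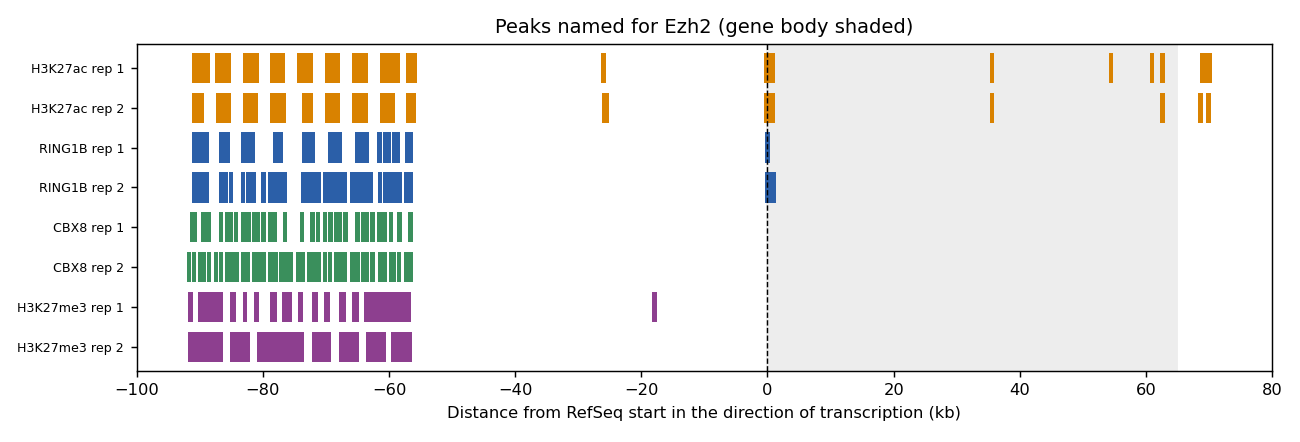
Peaks assigned to Ezh2 by distance from its start in the direction of transcription (x axis, kb; grey, gene body; dashed line, start), with 1 row per library and short peaks drawn at 0.4% of the axis. All 8 libraries list peaks between -91.8 and -55.6 kb, and RING1B and CBX8 are listed nowhere else apart from RING1B around the start.

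RING1B and CBX8 reached higher folds in this stretch than at any member promoter. The median RING1B fold was 3.51 and 4.01 with a highest value of 8.97 and 13.96, that of CBX8 was 4.14 and 6.06 with a highest value of 7.03 and 10.6, that of H3K27me3 was 2.1 and 2.54, and that of H3K27ac was 3.53 and 3.86. The covered length was 14.29 and 16.95 kb for RING1B, 9.89 and 17.24 kb for CBX8, 22.02 and 28.59 kb for H3K27me3, and 22.51 and 19.58 kb for H3K27ac. Peaks of all 4 antibodies thus lay in part on the same bases. Across the genome, 226 separate stretches were listed in all 8 libraries, together 58721 bp, and 14 of them (3691 bp) were here. None was at any other member.

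The stretch lies nearer to other annotated genes than to Ezh2. RefSeq places 8 genes in or across it, among them Rn4.5s, a small non-coding RNA gene at chr6:47654921-47655094, and predicted genes such as Gm40369 and Gm40367. RING1B peaks of 1.09 to 1.57 kb recurred along the stretch in replicate 1. They were centred at -60.4, -64.6, -68.9, -73.2, -77.6, -82.0, -86.5 and -90.5 kb. The peak over Rn4.5s was the highest RING1B peak of the stretch in replicate 2, at 13.96. In replicate 1 it reached 7.75, below the 8.97 of the peak at -64.6 kb. Over Rn4.5s, CBX8 had a fold of 2.72 and 4.96, H3K27me3 of 2.30 and 2.61, and H3K27ac of 3.69 and 3.67. Whether repeated sequence, copy number or read mapping had a part in this overlap was not tested, as no reads or input signal were used here. Without the stretch, the number of distal regions common to both replicates over all 9 genes fell from 19 to 0 for RING1B, from 35 to 2 for CBX8, from 21 to 8 for H3K27me3 and from 45 to 36 for H3K27ac, an alternative chosen after seeing the data.

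Jarid2 showed the largest difference between lines in the number of H3K27me3 peaks among the 9 genes. It had 4 distal H3K27me3 peaks in replicate 1 (line 1) and 28 in replicate 2 (line 2), a ratio of 7.0, while the whole lists differed by a ratio of 1.47. As many or more were listed for 4496 of 22517 genes in replicate 1 and 610 in replicate 2, Jarid2 included. Upstream of the gene, 3 peaks covered 1.4 kb in line 1, and 27 peaks covered 46.7 kb in line 2. The latter were separate peaks between -144.0 and -15.0 kb of the start, with folds from 2.40 to 3.62, and none reached the acetylated promoter. With 1 library per line, line and library cannot be told apart.

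The same upstream region held H3K27ac in both of its replicates. Common acetylated regions were centred at -88.2 kb (fold 6.71 and 3.61), -78.9 kb (5.32 and 3.91), -70.5 kb (4.17 and 2.37) and -56.9 kb (4.09 and 4.61). Replicate 1 of H3K27ac is from line 2, the line with the 27 upstream H3K27me3 peaks, at another passage. In that line the region at -78.9 kb fitted between H3K27me3 peaks, 208 bp after one and 59 bp before the next. The regions at -88.2 and -56.9 kb did not overlap H3K27me3 peaks either. Of the 6 upstream H3K27ac peaks of that library, 3 overlapped H3K27me3 of line 2: the one at -70.5 kb and those at -105.8 and -84.8 kb, which were listed in that H3K27ac replicate only. Inside the gene, common acetylated regions were at 44.7 kb (2.98 and 3.87), 48.3 kb (3.14 and 2.78) and 54.1 kb (2.94 and 2.32).

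**Figure D5:**
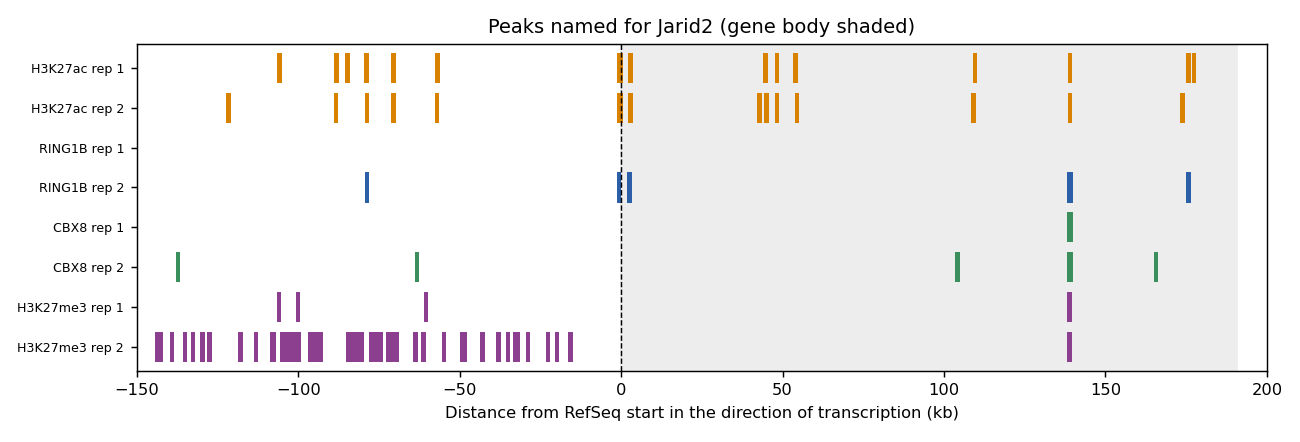
Peaks assigned to Jarid2 by distance from its start in the direction of transcription (x axis, kb; grey, gene body; dashed line, start), with 1 row per library and short peaks drawn at 0.4% of the axis. The 27 upstream H3K27me3 peaks of replicate 2 stand against 3 in replicate 1, and 1 position in the gene body is shared by 7 of the 8 libraries.

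A short position in intron 4 of Jarid2, chr13:44869504-44870079, was listed in 7 of the 8 libraries, all but RING1B replicate 1. CBX8 had peaks of 2.92 to 3.49 in replicate 1 and of 4.39 to 5.12 in replicate 2, where the -log10 q-value reached 31.8, and the RING1B peaks of replicate 2 were at 2.28 to 2.81. H3K27me3 was at 2.18 and 1.74, and H3K27ac at 1.70 and 1.79. As in the Ezh2 stretch, peaks of both histone marks and of both PRC1 subunits overlapped here. The position was kept in the counts of common CBX8, H3K27me3 and H3K27ac regions of Jarid2. Whether repeated sequence, copy number or read mapping had a part in it was not tested.

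Aebp2 had the most acetylated distal regions of the 9 genes, with 18 peaks in each replicate. Of all 22517 genes, 1242 in replicate 1 and 970 in replicate 2 had as many or more, Aebp2 included. At Aebp2, 16 regions were common to both replicates, counted as replicate 1 peaks. Several of these overlapped the same replicate 2 peak, as did those at 9.0, 10.1 and 12.1 kb. The highest common region was at -15.0 kb, with 7.31 and 9.40. It was followed among the upstream ones by -7.5 kb (4.77 and 5.45) and -4.5 kb (4.14 and 4.99). From there acetylated peaks followed one another through the promoter and the gene body to 44.2 kb. Jarid2 had 8 common acetylated regions and Ezh2, outside the stretch, had 4. Mtf2 had 3, Eed had 2, Suz12, Phf1 and Phf19 had 1 each, and Ezh1 had none. The region of Phf19 was intragenic, at 10.3 kb, and its fold of 4.40 and 4.70 was close to that of the promoter.

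Outside the Ezh2 stretch, replicate 1 listed 16 distal H3K27me3 peaks of the members, and 8 of them were common to both replicates. Replicate 2 listed 46 outside it. Beside 4 regions at Jarid2, there were 2 at Aebp2, both over 100 kb beyond its start (2.84 and 2.72 at 111.7 kb; 3.11 and 2.56 at 142.6 kb). Ezh1 had 1 at -5.1 kb (3.19 and 3.05) and Phf19 had 1 at -9.9 kb (3.05 and 2.90). Eed, Suz12, Mtf2 and Phf1 had none. No member had a common distal RING1B region outside the Ezh2 stretch, and common CBX8 regions were left at the Jarid2 intron only.

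Other Polycomb genes give a frame for these values. Of 7 genes for further PRC2 partners, 6 had peaks and all 6 were acetylated at the promoter in both replicates, with RING1B in both at Epop and Lcorl. Of 21 PRC1 genes, all 21 were acetylated, 9 had RING1B, 4 had H3K27me3 and 3 had CBX8 in both replicates. Those with RING1B and CBX8 were Bmi1, Cbx2 and Cbx8, which encode PRC1 subunits. Their promoter RING1B folds were 16.4 and 25.9 at Bmi1, 4.68 and 17.6 at Cbx2, and 11.8 and 28.3 at Cbx8. The highest RING1B promoter fold of the 9 members was 6.54 in replicate 1, above that of Cbx2, and 9.03 in replicate 2, below all 3. The partner gene Epop had RING1B at 8.68 and 7.09, with H3K27me3 at 3.97 and 3.30. Of 9 genes for enzymes that oppose Polycomb, 6 were acetylated, none had RING1B and 1 had CBX8 in both replicates. That one was Kdm6b, an H3K27 demethylase gene, with CBX8 at 5.93 and 4.49.

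The labelled cell type was checked on marker promoters, which show chromatin and not expression. All 4 horizontal basal markers and 2 of 6 basal and progenitor markers were acetylated in both replicates, against 55.6% of all genes. The basal and progenitor ones were Sox2 (23.6 and 23.9) and Hes6 (9.78 and 11.4). Of the horizontal basal markers, Trp63 (2.98 and 5.54) and Icam1 (2.97 and 3.06) lay below the all-gene median H3K27ac fold in both replicates. Krt5 (11.4 and 10.5) lay above it in both, and Krt14 in replicate 1 only. Icam1 alone of these also had H3K27me3 (2.74 and 3.49) and CBX8 (5.37 and 9.196) in both replicates. Kit, the gene of the sorting marker, was acetylated in replicate 2 only, at 2.45, and carried RING1B and H3K27me3 in both. No immature neuron marker (of 3) and no sustentacular marker (of 2) was acetylated in both, but 2 of 3 mature neuron markers were, with Omp at 3.61 and 3.65. Of the markers of other cells, Col1a1 was acetylated in both (5.12 and 4.17), and the leukocyte gene Ptprc and the endothelial gene Pecam1 were not. The part of a mixed culture in the members' values was not tested.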

How the data were processed

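ChIP-seq peaks of RING1B, CBX8, H3K27me3 and H3K27ac were used as deposited, with 1 list per library. Per the submitters' processing notes the build was mm10 and the tools were MACS2 2.1.1.20160309, BWA 0.7.12, bcl2fastq 2.17 and Trim Galore 0.4.3. Tool options, the control for each list and duplicate handling: not given in the sources used here. The deposited lists hold, per the file headers, a fold enrichment, a -log10 q-value, the nearest gene and the distance to its start. RING1B and CBX8 lists end at a q-value of 0.01 and the broad histone lists at 0.1, as read from the deposited values. Replicates had separate lists, and folds stayed on the authors' scale.

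With Python 3.11.15, pandas 2.3.3 and numpy 2.4.6, peaks of the 9 genes were taken by symbol and divided at 2000 bp from the start. Regions overlapping by at least 1 bp were called common, with coordinates 1-based from replicate 1. Common regions were counted as replicate 1 peaks, so several can share the same replicate 2 peak. The overlap code was checked on made-up intervals. Windows of 1000 and 5000 bp, q-value limits of 0.01 and 1e-05, an overlap of 50% and single replicates were tried as alternatives. Gene positions and promoter sequences are from RefSeq GRCm38.p6. Upstream positions are negative.

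The members and gene lists were chosen with earlier results of these data known. All 9 members are named. Genes of the other lists were named where RING1B and CBX8 were both called, with others chosen after their values were seen. For likeness, the 2 nearest genes to each of Ezh1, Ezh2 and Jarid2 were taken.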

Additional observations from a re-analysis of the deposited data

How the results depend on the processing

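The count of 9 members with H3K27ac held under every window, q-value limit and single replicate tried. Members with RING1B numbered 4, 4 to 7 with one replicate left out, and 3 at a q-value limit of 1e-05, where Ezh2 was lost; for CBX8 the count was 0, and 0 to 1. Members with H3K27me3 went from 1 to 2 with a window of 5000 bp, and to 0 at q-value limits of 0.01 and 1e-05. Of the distal regions common to both replicates, leaving one replicate out gave 20 to 38 for RING1B (main count 19), 36 to 68 for CBX8 (35) and 29 to 53 for H3K27me3 (21). At a q-value limit of 0.01 the H3K27me3 regions fell to 10, and at 1e-05 to 0, while the H3K27ac regions fell from 45 to 14 at 1e-05. Without the Ezh2 stretch, chosen after seeing the data, RING1B kept 0, CBX8 kept 2 and H3K27me3 kept 8. The 32 promoter folds were recomputed with 3 other rules for the promoter peak, and 95 of the 96 values were identical. Most of these folds came from a lone promoter peak near the start. The other rules could therefore rarely select another peak, and the match says little. No paired analysis was possible because the results come from no test, and same-numbered libraries share a line and passage in only some pairs of antibodies.

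An unlisted peak is not a fold of 0, and read depth is unknown. Peaks of a shared promoter can carry a neighbour's name, and only the authors' assignment was counted.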

Other observations

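Some peaks inside the member genes were assigned by the authors to a neighbour and are in none of the counts above. At the far end of Ezh1, RING1B replicate 2 (fold 3.73) and H3K27me3 replicate 1 (2.87) had peaks named for Cntnap1. Near the end of Jarid2, peaks named for Dtnbp1 were listed in replicate 2 of RING1B (4.51), H3K27me3 (2.47) and H3K27ac (2.53). Behind Phf1, peaks named for Cuta were listed in replicate 2 of RING1B (5.18), CBX8 (3.68) and H3K27ac (11.6). Each of these was listed in 1 replicate under that name. Among the enzymes that oppose Polycomb, Bap1 had no promoter peak in any library under its own name.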
